A study of Homo sapiens with 6 samples.

Results

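Transforming growth factor beta (TGF-beta), the activins and the bone morphogenetic proteins (BMPs) signal through a shared family of cell surface receptors, and the mRNA of 10 of their genes was examined in SW620 cells. The genes were BMPR1A, BMPR1B, BMPR2, ACVR1, ACVR1B, ACVR2A, ACVR2B, TGFBR1, TGFBR2 and TGFBR3. They were picked by name as receptors of this family, with earlier results of these data known. All 10 were found among 60835 gene names. SW620 is an established human colon cancer cell line. Cells labelled DNM1 Knockdown, which carry a stable vector against that gene (shDNM1, batch_B, 3 libraries), were set against cells that carry a control vector and are labelled WT (shControl, batch_A, 3 libraries). Both groups are SW620 cells grown in the same medium, and the labels do not say whether clones or pools were used, or whether replicates are separate cultures, so p-values reflect variation from library to library, which may be technical only. Batch and vector coincide and cannot be told apart in any result here.

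A ligand brings together type I and type II receptors, which are both serine/threonine kinases. The type II receptor phosphorylates the type I receptor, and the type I receptor then phosphorylates SMAD proteins, which join SMAD4 and enter the nucleus. BMPR1A, BMPR1B and ACVR1 are the type I receptors of BMPs, ACVR1B that of activins and TGFBR1 that of TGF-beta. BMPR2 is a type II receptor for BMPs, ACVR2A and ACVR2B serve activins and BMPs, TGFBR2 is the type II receptor of TGF-beta, and TGFBR3 (betaglycan) is a co-receptor with no kinase domain. In the intestine BMP signals favour differentiation over stem cell renewal, TGF-beta restrains epithelial growth, and genes of the pathway are recurrently mutated in colorectal cancer. The receptors are taken up by endocytosis, the process in which dynamins cut vesicles from the membrane.

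Of the 10 genes, 9 had enough counts to be tested, and 4 of these fell in the libraries labelled shDNM1: BMPR2 and ACVR2B to 51.3% and 51.6% of the shControl level, TGFBR1 to 65.2% and TGFBR3 to 75.9%. None of the 9 rose at an adjusted p under 0.05 in edgeR's quasi-likelihood test, whereas ACVR1C, a type I receptor gene outside the 10, did (1.68-fold, adjusted p = 0.0169). TGFBR2, the most abundant member, was 1.12-fold higher at an adjusted p of 0.0552, and BMPR1A, ACVR1, ACVR1B and ACVR2A did not pass. At this threshold 31.9% of the 16744 tested genes were called, 16.2% lower and 15.6% higher. The 4 lower members make up 44.4% of the 9 tested, against a background of 16.2%. Such a share was not particular to the receptors. Of the SMAD genes 4 of 8 were lower, and of the genes for routes outside SMADs 4 of 9. The other pathway lists had less, from 2 of 13 for receptor partners and trafficking to 3 of 8 for further receptors and co-receptors. Unlike the receptors, each pathway list also held genes called higher. In either direction 44.4% of the tested receptors were called, and 53.8% to 77.8% in the 8 other pathway lists. Lower by at least 1.5-fold were 3 of the 9, against 7.08% of all tested genes, and higher by at least 1.5-fold 0 of the 9, against 4.65%. The median log2 fold change of the 9 was -0.37, beside -0.01 over all genes tested. Because the 10 genes were chosen with earlier results of these data known, these shares and medians are descriptions and carry no test.

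The libraries held 12844534 to 13537519 counts each. DNM1, which encodes dynamin 1, had 126, 97.8 and 125 CPM (read counts after TMM scaling, relative to library size) in shDNM1 libraries 1 to 3, against 127, 127 and 133 CPM in the shControl libraries. Its log2 fold change was -0.15 (95% interval -0.32 to 0.03, adjusted p = 0.189) and an exact permutation test, two-sided, gave p = 0.1, which is the lowest value possible with 3 libraries a group. Without shDNM1 library 2 it was -0.037 (adjusted p = 0.718), and without library 1 it passed at -0.20 (adjusted p = 0.0399). The knockdown label is therefore not matched by a called loss of DNM1 mRNA, and differences below are between the 2 labelled sets. Library shDNM1 2 had the lowest DNM1 and the fewest genes at 10 or more counts (16347, against 16771 to 16896 elsewhere). Over all genes, library shDNM1 1 was the farthest from its group, with a chi-square per gene of 8.05 and 5.69 against libraries 2 and 3, which differed by 3.79, while pairs of shControl libraries differed by 2.42 to 3.54. Leaving out library 1 brought DNM1 past the threshold, and TGFBR2 as well. The colon epithelial markers were present, with a summed level of 11967 to 12829 TPM (a level per gene length on a common total) in shDNM1 and 10621 to 11330 TPM in shControl libraries, although CDX1 was at 0 in all 6. Of the 8 of them tested, 5 were called higher (CDX2, KRT8, KRT18, KRT19 and CDH1) and 1 lower (EPCAM). The CDH1 call was lost in 12 of 21 alternative analyses, and KRT20, like CDX1, was not tested. The 8 fibroblast markers summed to 36.3 to 54.4 TPM in shDNM1 and 28.6 to 36.2 TPM in shControl (PDGFRB and LUM higher among 3 tested, COL3A1 at 0 in all 6), the 7 endothelial markers to 18.1 to 24.7 and 19.5 to 21.3 TPM (KDR at 0 in all 6; TIE1 and VWF higher among 5 tested, median log2 fold change 0.49), and the 6 leukocyte markers to 2.71 to 4.21 and 6.84 to 9.21 TPM (CD3E at 0 in all 6; LYZ, the 1 tested, lower with a log2 fold change of -1.15). Their part in the receptor differences was not tested. In bulk RNA, fewer cells that express a gene and less RNA of it per cell cannot be told apart.

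**Figure D1:**
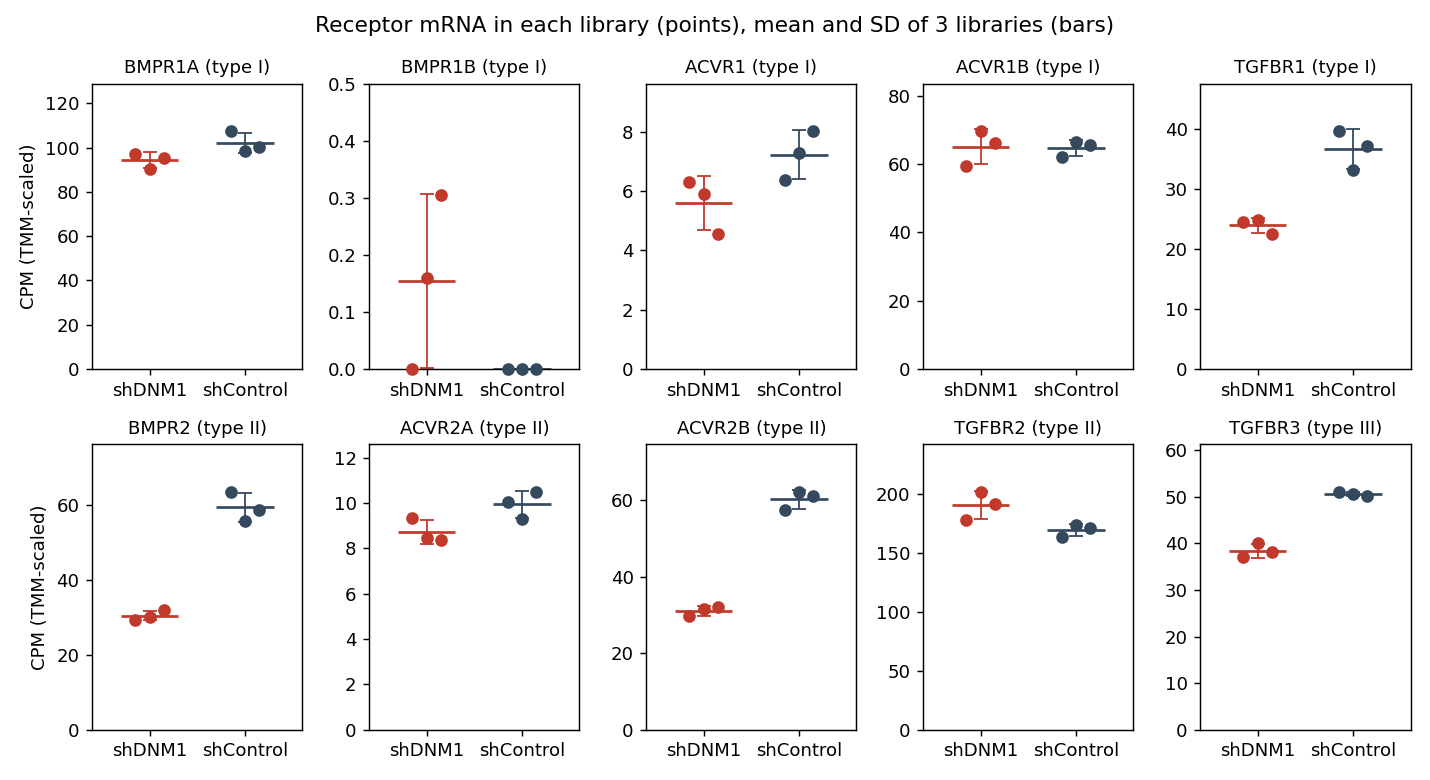
CPM of each receptor gene (y axis, linear from 0, own scale per panel) in the shDNM1 libraries (red, left) and the shControl libraries (blue, right), each point 1 library, bars the mean and SD of 3. BMPR2 and ACVR2B sit at 29.4 to 32.1 CPM in shDNM1, apart from 56.0 to 63.6 CPM in shControl, whereas ACVR1B overlaps between the groups.

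Among the type II receptors, BMPR2 and ACVR2B fell by nearly the same factor. BMPR2 (ENSG00000204217, GRCh38 chromosome 2, 202376327 to 202567751, plus strand) is the long-tailed type II receptor that is dedicated to BMP signals. It had 29.4, 30.2 and 31.9 CPM in shDNM1 libraries 1 to 3, against 63.6, 56.0 and 58.8 CPM in shControl libraries 1 to 3. The highest shDNM1 library lay far below the lowest shControl library, and the gap between the groups was wider than the range within either. BMPR2 thus had a log2 fold change of -0.96 (SE 0.081, 95% interval -1.13 to -0.79, adjusted p = 6.57e-08), or 45.7% to 57.8% of the control level, and 3.67% of tested genes had a value as low or lower.

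ACVR2B (ENSG00000114739, chromosome 3, 38453890 to 38493142, plus strand) binds activins, myostatin and some BMPs with high affinity. It had 29.6, 31.5 and 32.1 CPM in the shDNM1 libraries, against 57.4, 62.1 and 61.0 CPM in the shControl libraries. Again no shDNM1 library reached the control range. For ACVR2B the log2 fold change was -0.95 (SE 0.078, 95% interval -1.12 to -0.79, adjusted p = 4.45e-08). Both calls held in each of the 21 alternative analyses, including a test against a 1.5-fold change, with log2 fold changes between -1.01 and -0.88.

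ACVR2A (ENSG00000121989, chromosome 2, 147844517 to 147930826, plus strand), the closest relative of ACVR2B, did not show a called difference. It had 9.32, 8.45 and 8.36 CPM in shDNM1 and 10.04, 9.28 and 10.5 CPM in shControl libraries. The ranges touched, because shDNM1 library 1 lay just above shControl library 2. Its log2 fold change was -0.19 (SE 0.14, adjusted p = 0.335), and the 95% interval of -0.49 to 0.11 lies above that of ACVR2B. With 106 to 136 counts a library the estimate is less precise, and ORC4 overlaps ACVR2A on the other strand with 544 to 699 counts, so reads may have been shared if counting ignored strand.

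TGFBR2 (ENSG00000163513, chromosome 3, 30606601 to 30694142, plus strand), the receptor that binds TGF-beta first, had a positive log2 fold change that missed the threshold. It had 178, 202 and 192 CPM in shDNM1 libraries, against 164, 174 and 171 CPM in shControl libraries. Each shDNM1 library lay above each shControl library, but shDNM1 library 1 did so only narrowly. This gave a log2 fold change of 0.17 (SE 0.064, 95% interval 0.03 to 0.30, unadjusted p = 0.0181, adjusted p = 0.0552). It passed in 8 of the 21 alternatives, among them RLE scaling (adjusted p = 0.0421), and most clearly without shDNM1 library 1 (0.22, adjusted p = 0.00471). Without shDNM1 library 2 it was 0.12 (adjusted p = 0.167).

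**Figure D2:**
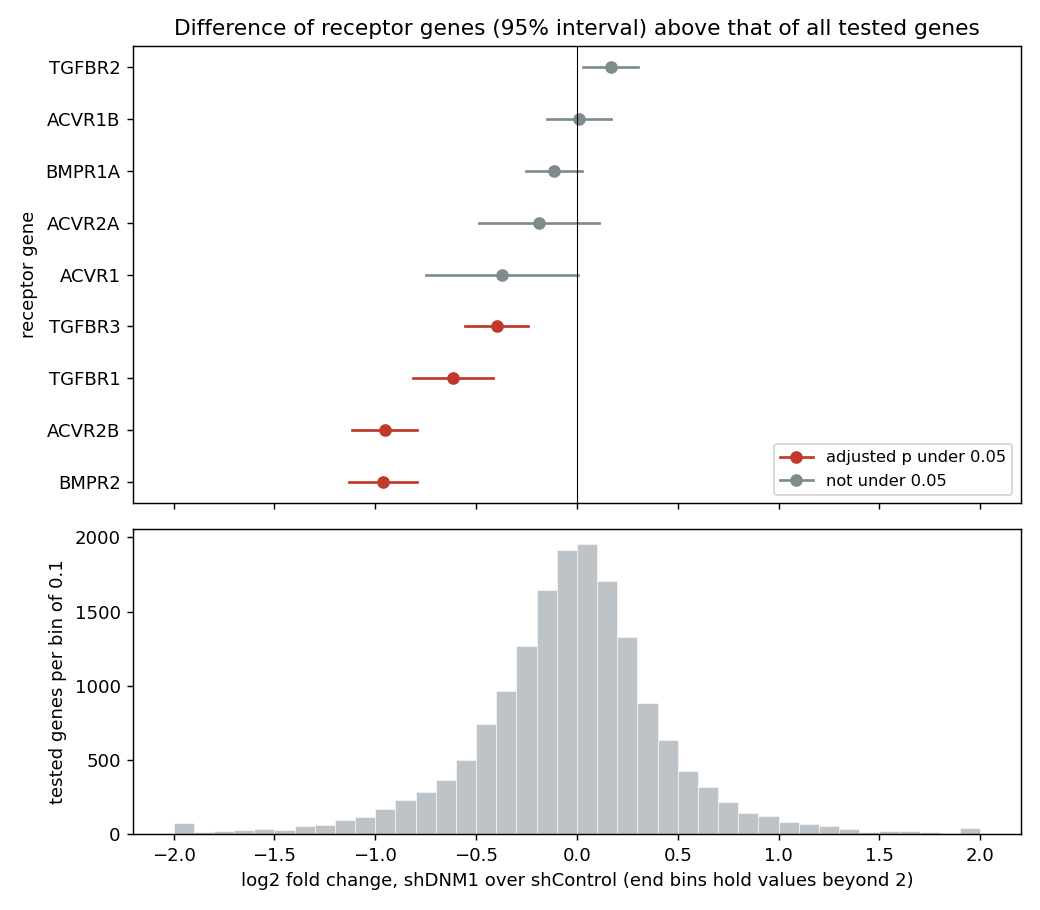
Top, log2 fold change of shDNM1 over shControl (x axis) with its 95% interval for the 9 tested receptor genes, red where the adjusted p was under 0.05; bottom, the number of tested genes per bin of 0.1 on the same axis. BMPR2 (-0.96) and ACVR2B (-0.95) lie in the lower tail of the distribution, TGFBR1 (-0.62) and TGFBR3 (-0.40) on its lower side, and ACVR1B (0.01) at its centre.

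Of the type I receptors, TGFBR1 was the one that fell. TGFBR1 (ENSG00000106799, chromosome 9, 99104038 to 99154192, plus strand), the kinase that TGFBR2 activates, had 24.5, 24.8 and 22.5 CPM in shDNM1 libraries, against 39.6, 33.1 and 37.2 CPM in shControl libraries. The groups did not overlap, and the shControl libraries were the more scattered of the 2 sets. The log2 fold change was -0.62 (SE 0.094, 95% interval -0.81 to -0.42, adjusted p = 6.42e-05).

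ACVR1B (ENSG00000135503, chromosome 12, 51951699 to 51997078, plus strand), the activin type I receptor, uses the same SMAD2 and SMAD3 as TGFBR1. It had 59.4, 69.6 and 66.2 CPM in shDNM1 libraries and 62.0, 66.4 and 65.5 CPM in shControl libraries. The control values lay inside the range of the shDNM1 values. The log2 fold change was 0.01 (SE 0.075, adjusted p = 0.942), with an interval of -0.15 to 0.17, and its sign changed between analyses.

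BMPR1A (ENSG00000107779, chromosome 10, 86756601 to 86932825, plus strand) is the main BMP type I receptor of the intestinal epithelium, and germline loss of it causes juvenile polyposis. It had 97.2, 90.5 and 95.5 CPM in shDNM1 libraries, against 107, 98.5 and 101 CPM in shControl libraries. Every shDNM1 value was below every shControl value, the nearest pair being 97.2 and 98.5 CPM. The log2 fold change of -0.11 (SE 0.066, 95% interval -0.25 to 0.03) did not pass (adjusted p = 0.207).

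ACVR1 (ENSG00000115170, chromosome 2, 157736251 to 157876330, minus strand) transmits BMP and activin-family signals to SMAD1 and SMAD5. It was low, with 6.29, 5.90 and 4.56 CPM in shDNM1 libraries and 6.36, 7.29 and 8.02 CPM in shControl libraries. The groups were separated by a narrow margin between shDNM1 library 1 and shControl library 1. ACVR1 had a log2 fold change of -0.37 (SE 0.18, 95% interval -0.75 to 0.01, adjusted p = 0.126). With 60 to 104 counts in a library, a moderate fall was not resolved from no change.

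BMPR1B (ENSG00000138696, chromosome 4, 94757955 to 95158448, plus strand), a BMP type I receptor best known from cartilage and ovary, was close to undetected. It had 0, 2 and 4 counts in shDNM1 libraries and 0 counts in each shControl library. A count of 0 allows up to 3 counts, or 0.222 to 0.234 CPM of unscaled library total in shControl, so no fold is given and the gene was not tested. The limit covers counting error only.

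TGFBR3 (ENSG00000069702, chromosome 1, 91680343 to 91906335, minus strand), which presents TGF-beta to TGFBR2 and helps inhibin oppose activin, fell by a smaller step. It had 37.0, 40.0 and 38.2 CPM in shDNM1 libraries, against 51.1, 50.6 and 50.2 CPM in shControl libraries. The shControl libraries differed among themselves by less than 1 CPM, and the shDNM1 libraries by about 3 CPM. Its log2 fold change was -0.40 (SE 0.075, 95% interval -0.56 to -0.24, adjusted p = 5.06e-04). The TGFBR1 and TGFBR3 calls held in 20 of the 21 alternatives and were lost in the test against a 1.5-fold change (adjusted p = 1 for each).

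Across the 9 tested members, every shDNM1 library lay below every shControl library for 6 genes and above for 1. Over all tested genes such separation was seen in 23.1% (lower) and 21.2% (higher), so it was common in this comparison. The members' 6 of 9 was a larger share than this background, and their 1 of 9 a smaller one. As the members were chosen with earlier results of these data known, these shares carry no test.

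On the scale per gene length, TGFBR2 was the most abundant receptor mRNA in both sets, with 96.3 ± 3.54 TPM in shDNM1 and 89.3 ± 1.58 TPM in shControl (SD, n = 3 each). BMPR1A had 43.1 ± 2.90 TPM in shDNM1 and 48.5 ± 2.89 TPM in shControl, and ACVR1B 42.0 ± 2.33 and 43.5 ± 1.01 TPM. The libraries of this pair overlapped in shDNM1 but not in shControl. TGFBR3 came next at 17.4 ± 0.18 TPM in shDNM1 and 23.9 ± 0.47 TPM in shControl. Then followed TGFBR1 with 10.8 ± 0.52 TPM in shDNM1 and 17.2 ± 1.77 TPM in shControl. ACVR2B and BMPR2, with 7.71 ± 0.30 and 7.41 ± 0.39 TPM in shDNM1 and 15.6 ± 0.43 and 15.03 ± 1.18 TPM in shControl, were not distinguishable from each other in either set. TGFBR1 was above both in every shDNM1 library, whereas in shControl its range overlapped those of both ACVR2B and BMPR2. ACVR2A and ACVR1 were the lowest of the tested genes, at 4.90 ± 0.41 and 3.68 ± 0.61 TPM in shDNM1 and 5.81 ± 0.40 and 4.96 ± 0.54 TPM in shControl. The order of mean levels was the same in both sets.

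The makeup of the type II class differed between the sets. TGFBR2 made up 82.0%, 83.7% and 82.6% of the summed type II TPM in shDNM1 libraries 1 to 3, against 70.1%, 72.0% and 71.0% in shControl libraries. BMPR2 took 6.37% ± 0.32 in shDNM1 and 11.96% ± 1.00 in shControl, and ACVR2B 6.63% ± 0.20 and 12.4% ± 0.28 (SD, n = 3 each). The sum of BMPR2, ACVR2A and ACVR2B was 20.01 ± 0.73 TPM in shDNM1 and 36.4 ± 1.11 TPM in shControl, while the whole type II class summed to 116 ± 3.40 and 126 ± 0.95 TPM. These sums are descriptions and carry no test.

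**Figure D3:**
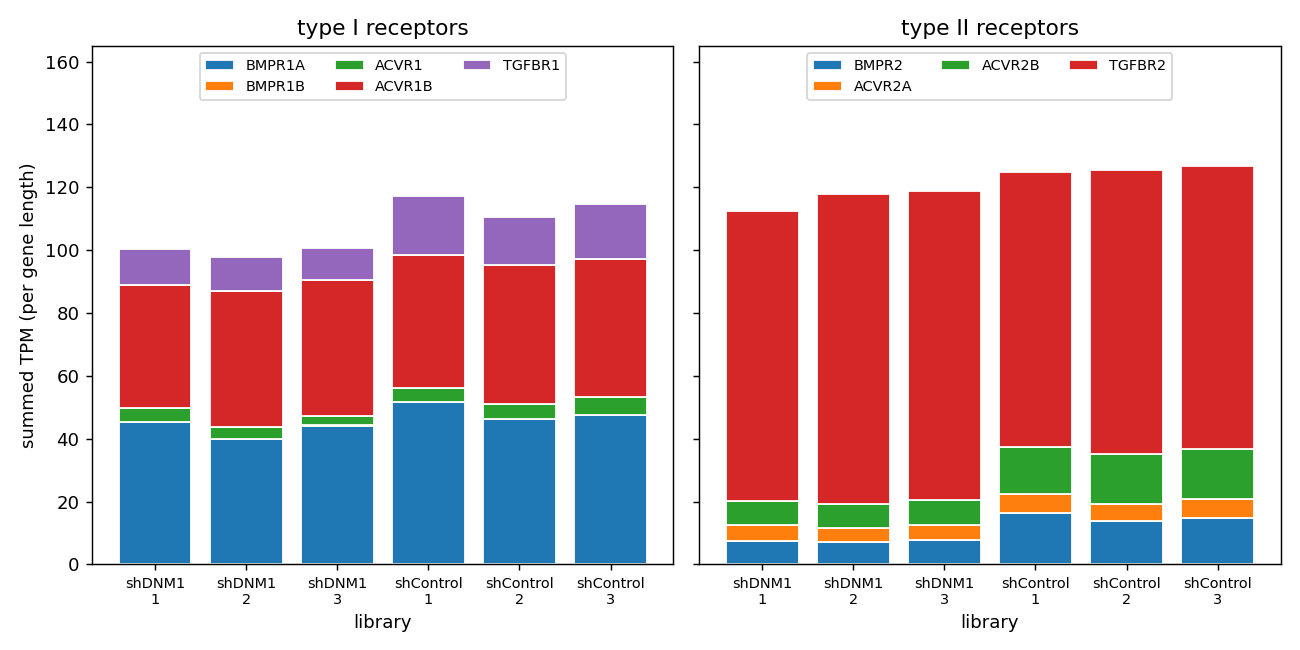
Stacked TPM of the type I (left) and type II (right) receptor genes among the 10 members in each library, shDNM1 libraries first in each panel. TGFBR2 forms 82.0% to 83.7% of the type II bar in shDNM1 and 70.1% to 72.0% in shControl, and TGFBR1 forms 10.2% to 11.3% of the type I bar in shDNM1 and 13.9% to 16.1% in shControl.

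Within the type I class, TGFBR1 had a smaller share in the shDNM1 libraries. TGFBR1 held 11.3%, 11.03% and 10.2% of the summed type I TPM in shDNM1 libraries, against 16.1%, 13.9% and 15.2% in shControl libraries. BMPR1A kept a similar share, 43.2% ± 2.32 in shDNM1 and 42.5% ± 1.40 in shControl. ACVR1B held 42.2% ± 2.65 in shDNM1 and 38.1% ± 1.93 in shControl, a difference close to the spread. The sum of the type I members was 99.6 ± 1.56 TPM in shDNM1 and 114 ± 3.44 TPM in shControl. This sum and the shares leave out 2 type I receptor genes that are not members. These are ACVR1C, with a mean of 1.79 TPM in shDNM1 and 1.11 TPM in shControl, and ACVRL1, with 1.91 and 1.21 TPM.

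Ratios between receptors that work as partners put these differences on 1 scale. In each of the 3 given here the gene that was called lower is the denominator, so their direction follows from the single-gene values and is no further result. TPM of TGFBR2 over that of TGFBR1 was 8.16, 9.14 and 9.55 in shDNM1 libraries, against 4.64, 5.89 and 5.15 in shControl libraries. BMPR1A over BMPR2 was 6.21, 5.63 and 5.63 in shDNM1, against 3.18, 3.31 and 3.21 in shControl. ACVR1B over ACVR2B was 5.22, 5.75 and 5.37 in shDNM1, against 2.81, 2.78 and 2.79 in shControl. The ratios concern mRNA, and receptor protein at the cell surface was not measured in these files.

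The libraries' pattern of BMPR2 was compared with that of 12017 genes by the distance between log2 CPM values, each centred on its shControl mean. The nearest were TMTC4 (distance 0.12), KLHL5 (0.12) and TOX3 (0.14), and among the receptors ACVR2B was closest, at rank 23 with a distance of 0.22. TGFBR1 followed at rank 468. These distances use 6 libraries, include the difference between the sets and carry no test.

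By position, the receptor genes are scattered over chromosomes 1, 2, 3, 4, 9, 10 and 12. BMPR2, ACVR1 and ACVR2A share chromosome 2, and ACVR2B and TGFBR2 the short arm of chromosome 3, and on each of these the members' log2 fold changes ranged widely (-0.96, -0.37 and -0.19, and -0.95 and 0.17). Of the 3 nearest tested genes on each side of ACVR2B, 0 were called lower, and EXOG, 2985 bases beyond its end, had a log2 fold change of -0.06 (adjusted p = 0.667). Around BMPR2, 1 of the 6 nearest genes, FAM117B, was called lower (log2 fold change -0.53) and 1, WDR12, higher. For TGFBR1, 2 of the 6 were called lower and 1 higher, and for TGFBR3 1 lower and 0 higher. Over all tested genes 16.2% were called lower and 15.6% higher. Whether position played a part in the differences was not tested. The antisense transcript ACVR2B-AS1, which overlaps the start of ACVR2B, had 6 to 10 counts in shDNM1 and 8 to 14 counts in shControl libraries, beside 381 to 422 and 749 to 843 counts of ACVR2B.

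The upstream sequences of the pair that fell most are shown with those of abundant receptors of each kinase class that were not called, ACVR1B and TGFBR2. They are the 250 bases before the RefSeq gene start (GRCh38.p14), written 5′ to 3′ on the gene's strand, and capitals mark each GC box, GGGCGG or its reverse complement CCGCCC. BMPR2 is at chr2:202376077-202376326, ACVR2B at chr3:38453640-38453889, ACVR1B at chr12:51951449-51951698 and TGFBR2 at chr3:30606106-30606355, all on the plus strand. RefSeq's TGFBR2 start differs from the start in the deposited table, and the other 3 windows end 1 base before the deposited start.
BMPR2: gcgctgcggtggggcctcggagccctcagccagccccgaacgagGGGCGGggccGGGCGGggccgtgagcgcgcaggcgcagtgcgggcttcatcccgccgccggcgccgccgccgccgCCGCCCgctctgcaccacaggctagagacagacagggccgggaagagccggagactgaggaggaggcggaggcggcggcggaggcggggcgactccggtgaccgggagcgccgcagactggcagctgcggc
ACVR2B: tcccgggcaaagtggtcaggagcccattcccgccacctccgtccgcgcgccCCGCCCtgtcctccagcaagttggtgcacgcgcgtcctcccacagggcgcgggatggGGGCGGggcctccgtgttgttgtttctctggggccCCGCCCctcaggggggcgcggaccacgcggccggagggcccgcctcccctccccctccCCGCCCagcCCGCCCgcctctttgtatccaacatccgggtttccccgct
ACVR1B: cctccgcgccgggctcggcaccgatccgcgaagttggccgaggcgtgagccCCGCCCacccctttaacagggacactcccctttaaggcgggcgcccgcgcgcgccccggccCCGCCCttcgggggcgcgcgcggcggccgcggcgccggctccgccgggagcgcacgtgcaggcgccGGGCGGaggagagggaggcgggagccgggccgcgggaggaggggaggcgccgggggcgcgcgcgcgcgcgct
TGFBR2: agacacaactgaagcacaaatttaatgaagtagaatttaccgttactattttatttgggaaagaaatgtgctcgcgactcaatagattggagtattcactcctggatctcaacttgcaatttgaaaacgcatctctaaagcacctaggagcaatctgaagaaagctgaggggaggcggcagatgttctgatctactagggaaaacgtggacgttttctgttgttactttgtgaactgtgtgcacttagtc
The BMPR2 window is 79.2% G or C with 3 GC boxes, that of ACVR2B 74.0% with 5, that of ACVR1B 82.8% with 3 and that of TGFBR2 40.8% with 0. GGGCGG on either strand occurs in 42.6% of 35116 RefSeq windows of this length, whose median GC content is 58%. Of the receptor windows not printed, that of TGFBR1, called lower, had 0 GC boxes at 79.6% G or C, and that of TGFBR3, also called lower, had 2. ACVR1, not called, had 2, and BMPR1A, ACVR2A and the untested BMPR1B had 0. GC boxes thus occurred in 3 of the 4 windows of genes called lower and in 2 of the 5 of genes that were tested and not called. Several of these windows do not flank the start in the deposited table. Those of TGFBR1, TGFBR3 and ACVR2A lie inside the deposited gene, and that of BMPR1A, like that of TGFBR2, ends well before its start. Among tested genes, the windows that do flank the deposited start are those of BMPR2 and ACVR2B, called lower, and ACVR1B and ACVR1, not called. Each of these holds GC boxes, so the shares above differ only with the other windows included. Whether GC boxes go with the calls was not tested.

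Other components of the pathway moved in both directions. In the 8 lists below 53.8% to 77.8% of the tested genes were called, against 31.9% of all tested genes (15.6% higher, 16.2% lower). These lists too were chosen with earlier results of these data known, and their shares carry no test. Of 8 tested further receptors and co-receptors, 2 rose and 3 fell. ACVR1C, an activin-family type I receptor named here after its values were seen, was low, with 5.90, 4.07 and 6.23 CPM in shDNM1 libraries, against 3.14, 2.65 and 3.85 CPM in shControl libraries. The groups did not overlap, and its log2 fold change was 0.75 (SE 0.23, adjusted p = 0.0169). It was called in 14 of 21 alternatives, and not without shDNM1 library 3 (0.64, adjusted p = 0.0816), shControl library 1 (0.74, adjusted p = 0.0523) or shControl library 2 (0.62, adjusted p = 0.0826). NEO1, a receptor that also binds the BMP co-receptors of the RGM family, fell to 28.3 ± 2.90 CPM in shDNM1, against 60.9 ± 3.82 CPM in shControl (log2 fold change -1.11, adjusted p = 3.44e-08), and TDGF1, the Nodal co-receptor, to 5.48 ± 1.04, against 12.7 ± 0.95 CPM. BAMBI, a pseudoreceptor that lacks the kinase and blocks type I receptors, rose to 193 ± 17.2 CPM, against 108 ± 4.04 CPM in shControl (1.80-fold, adjusted p = 6.64e-08). All 8 SMAD genes were tested, of which 4 fell and 1 rose. SMAD3, which TGFBR1 and ACVR1B activate, was at 71.3% of control (adjusted p = 2.14e-05) and the inhibitory SMAD6 at 70.6% (adjusted p = 2.43e-05). SMAD4, the common partner, was scarcely present in either set, with 4, 8 and 5 counts in shDNM1 and 36, 12 and 22 counts in shControl libraries. Its log2 fold change was -1.98 (adjusted p = 0.00405), a call lost in 3 of 20 alternatives. These were leaving out shControl library 1 (-1.52, adjusted p = 0.0516), the test against a 1.5-fold change (adjusted p = 0.0558) and limma on log2(TPM + 1). The last gave a log2 fold change of only -0.48 (adjusted p = 0.0654).

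Of 12 intracellular brakes 4 rose and 3 fell, among them PMEPA1, which sequesters receptor-activated SMADs (2.34-fold, adjusted p = 1.42e-08), SKI, a SMAD co-repressor (1.30-fold), and the ubiquitin ligase gene WWP1 (58.2% of control). Of 13 genes for receptor partners and trafficking 5 rose and 2 fell. GIPC1, which binds the tail of TGFBR3, was 1.58-fold higher, whereas ARRB2, the arrestin that carries TGFBR3 inward, was at 65.9% and DAB2, an endocytic adaptor that binds TGF-beta receptors, at 61.3% of control (adjusted p = 4e-07, 9.47e-05 and 7.69e-05). Of 9 genes for the routes outside SMADs 3 rose and 4 fell, with TAB2 at 58.1% and its kinase partner MAP3K7 at 76.8% of control, and LIMK1, a kinase bound by the BMPR2 tail, 1.38-fold higher.

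Of 25 ligand genes 14 were tested, of which 6 rose and 4 fell. GDF15, a stress-induced member of the family that signals through another receptor, was 2.75-fold higher, INHBB, an activin subunit, 1.83-fold and TGFB1 1.46-fold, whereas BMP5 was at 36.7% of control. Of 19 antagonist and latency genes 5 were tested, of which 2 rose (FSTL3, an activin-binding protein, 1.58-fold, and LTBP3, 1.15-fold) and 1, TWSG1, a BMP-binding protein, fell to 63.6%. The LTBP3 call was lost in 11 of 21 alternatives, including leaving out shDNM1 library 1 or 3 or any shControl library (adjusted p = 0.0533 to 0.104).

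Genes that BMP or TGF-beta signals are known to induce formed a list of 18, some of which also stand in the lists above. They were tested gene by gene, and the list as a whole was not tested. Of 16 tested, 6 rose, 4 fell and 6 did not pass. The BMP-responsive MSX2 rose to 19.2 ± 1.39 CPM in shDNM1, against 8.61 ± 0.85 CPM in shControl (SD, n = 3 each; 2.22-fold, edgeR adjusted p = 2.21e-06). CCN2 was at 44.2% of control from few counts, a call lost in 8 of 21 alternatives, including leaving out shDNM1 library 1 or 3 or any shControl library (adjusted p = 0.0565 to 0.153). Except for the receptors and the SMADs, whose median was -0.31, the medians of these lists lay between -0.05 and 0.07 on the log2 scale.

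**Figure D4:**
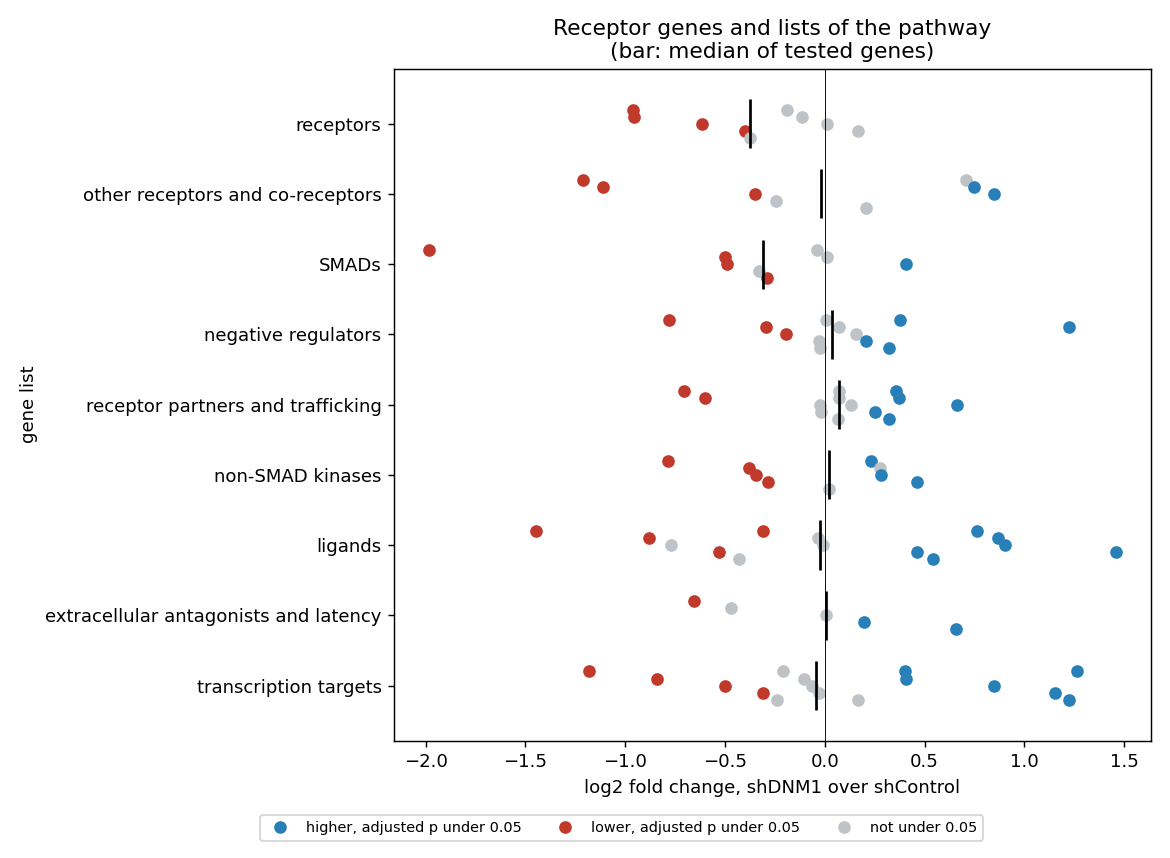
Log2 fold change of shDNM1 over shControl (x axis) for every tested gene of the receptor group and of the 8 other lists (rows), blue where higher and red where lower at an adjusted p under 0.05, grey otherwise, with a bar at each list's median. The receptor row has 4 red points, no blue point and a median of -0.37, whereas each of the other rows holds both colours. ACVR1C and ACVRL1, type I receptor genes outside the receptor group, stand in the row of other receptors and co-receptors. Their log2 fold changes were 0.75 (called higher) and 0.71 (edgeR adjusted p = 0.0896, not called).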

How the data were processed

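RNA of 6 SW620 libraries was sequenced. The deposited table holds read counts per gene as made by the authors on GRCh38, per the submitters' processing notes; which aligner, counter, strand setting and annotation served is not given in the sources used here. A second deposited table holds TPM by the authors, handled as a score because 2328 repeated lines raise its sums. Of 62710 lines, 60835 unique names were kept, and 0 per-sample columns were unused. Counts were tested with edgeR 4.0.16 in R 4.3.3 (filterByExpr, TMM, glmQLFit and glmQLFTest, two-sided, Benjamini-Hochberg adjustment over 16744 genes, threshold 0.05), after a test on simulated data. CPM are TMM-scaled. limma 3.58.1 and DESeq2 1.42.0 served as alternatives. GC content came from GENCODE transcripts (96.7% of tested genes), promoters from RefSeq.

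Pathway genes were named as up to 3 with the smallest p in each list, plus called genes changed at least 2-fold; some genes are not reported here. The receptor genes and lists were chosen with earlier results of these data known. A comparison of receptor proteins was planned and not run here.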

Additional observations from a re-analysis of the deposited data

How the results depend on the processing

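The 4 receptor genes called lower stayed 4 in 20 of 21 alternatives, and were 2 in glmTreat against a 1.5-fold change. The number called higher, 0, became 1 (TGFBR2) with DESeq2, RLE scaling, a minimum CPM of 1 in 3 libraries, the robust fit, the length or GC trend removed, and the replicate block; leaving out single libraries gave 0 to 1. Calls over all genes moved by more than 1.5 times with an adjusted p of 0.01 (1739 higher, 1764 lower) and with glmTreat (251 higher, 340 lower). Higher genes were 49.0% of calls, but 38.8% with limma on log2(TPM + 1) or log2(TPM + 0.1). With the replicate number as a block, 2964 genes were higher and 3116 lower; same-numbered libraries deviated together with correlations of 0.14, 0.098 and -0.046, so the numbers were not taken as pairs.

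DNM1 passed with the GC trend removed (-0.20, adjusted p = 0.0473) and ranged from -0.20 to -0.037 when single libraries were left out. ACVR1B was negative with upper quartile scaling (-0.0068), library size alone (-0.027) and log2 TPM with a pseudocount of 1 (-0.050) or 0.1 (-0.051), and ran from -0.041 to 0.073 without single libraries. With TMM-scaled CPM per gene length, the summed log2 ratio was -0.14 for type I (TPM -0.20), -0.053 for type II (TPM -0.11), -0.80 for type II without TGFBR2 (TPM -0.86) and -0.40 for TGFBR3 (TPM -0.46). Of 545 values of the 26 other named genes, 41 lost their call and none changed sign. The cause of these changes was not tested. Counts under about 100 a library limit ACVR1, and BMPR1B lies at the floor.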
